A study of Mus musculus with 145 samples.

Results

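The genes described here are the IL-17 program of gamma delta T cells: the cytokines Il17a and Il17f, the cytokine receptors Il23r, Il18r1 and Il1r1, the chemokine receptor Ccr6, the transcription factors Sox13 and Maf, and the tyrosine kinase Blk. They were given as a list of 9 symbols, and each was read from the probe set annotated to that symbol alone. 8 of the 9 had such a probe set, each exactly 1, of 19752 genes so annotated among 24922 probe sets; Il1r1 is not analysed here. The series holds 145 Affymetrix arrays of sorted mouse immune and stromal cells in 65 groups of 1 to 4 arrays.

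The values turn mainly on 3 groups of gamma delta thymocytes from C57BL/6J mice, all stained for the T cell receptor delta chain and gated as CD4-, CD8- and NK1.1-. The Vg2 CD24hi group (3 arrays) was stained positively for Vg2. The Vg4 CD24hi (3 arrays) and Vg4 CD24lo (2 arrays) groups were defined by exclusion, as cells without Vg1.1, Vg2, Vg3 and Vg5, so that "Vg4" is the name in their titles and not a stain. They were set against CD4+ CD8+ CD69- double-positive (DP) thymocytes labelled e17 (3 arrays), of the alpha beta lineage. The e17 title is shared, but lineage and developmental stage cannot be told apart in the comparisons with DP cells. Titles place all 4 groups at embryonic day 17 while their age field reads 5 weeks, and which holds cannot be told apart here. The gamma delta arrays are labelled male and the e17 DP arrays of mixed sex. The Vg2 and DP titles carry the suffix v2 that the Vg4 titles lack; its meaning is not given, and it cannot be told apart from the group in any comparison of the Vg4 groups with the others. Adult DP and DP CD69+ thymocytes (3 arrays each, 6 weeks) completed the thymocyte set. The labels do not say that arrays of a group came from separate animals, so p-values speak to the spread among these arrays, which may be technical, and no further.

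Gamma delta T cells leave the fetal thymus in waves named by the gamma chain variable segment they use, and some acquire the capacity to make IL-17 before they leave. CD24 is high on immature thymocytes and lost as they mature. Sox13 and Maf are transcription factors, and Blk a Src family kinase, known for their part in the development of IL-17-producing gamma delta cells, in which the cytokine genes are driven by the nuclear receptor RORgammat. IL-23, IL-1 and IL-18 act on such cells through receptors that include the products of Il23r, Il1r1 and Il18r1, and CCR6 guides them toward its ligand CCL20.

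Il17a and Il17f are the linked pair whose products form IL-17A and IL-17F, and Il23r is the receptor gene that differed most between the gamma delta groups. These 3 are shown by the 250 bases before their start sites (RefSeq, GRCm38.p6). They rose together in both gamma delta comparisons, but so did Il18r1, whose windows are not shown and held none of the sequence motifs looked for. In RefSeq's gene order Il17a and Il17f are neighbours, with start sites 53365 bases apart on opposite strands. The windows are chr1:20730655-20730904 on the plus strand for Il17a, chr1:20784271-20784520 on the minus strand for Il17f and chr6:67491856-67492105 on the minus strand for Il23r. Capitals mark, on either strand, the ROR core AGGTCA, the Maf core TGCTGA, the AP-1 site TGANTCA and the TATA box TATAAA.
Il17a: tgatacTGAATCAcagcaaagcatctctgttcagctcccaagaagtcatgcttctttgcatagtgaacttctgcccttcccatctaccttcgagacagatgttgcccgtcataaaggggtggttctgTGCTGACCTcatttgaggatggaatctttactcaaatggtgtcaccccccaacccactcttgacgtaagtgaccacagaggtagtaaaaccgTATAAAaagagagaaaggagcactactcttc
Il17f: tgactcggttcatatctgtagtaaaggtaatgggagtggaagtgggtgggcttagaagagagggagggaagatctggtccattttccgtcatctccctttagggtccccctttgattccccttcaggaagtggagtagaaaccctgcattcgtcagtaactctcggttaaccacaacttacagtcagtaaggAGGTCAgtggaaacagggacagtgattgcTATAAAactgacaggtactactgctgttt
Il23r: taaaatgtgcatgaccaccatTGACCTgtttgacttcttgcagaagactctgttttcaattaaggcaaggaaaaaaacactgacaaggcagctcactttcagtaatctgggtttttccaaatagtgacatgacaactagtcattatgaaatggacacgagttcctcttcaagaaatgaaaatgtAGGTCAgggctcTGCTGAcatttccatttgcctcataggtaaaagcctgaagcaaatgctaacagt

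All 3 windows held the ROR core, which was present in 14% of all 32851 promoter windows of this length. Il23r held 2 copies, 229 and 66 bases before the start, counted from the far end of the match. Il17f held 1, at 58 bases, and Il17a 1, at 120 bases, in the reverse orientation TGACCT and overlapping a Maf core by 3 bases. The Maf core, present in 16.1% of windows, was found once in Il17a and once in Il23r, at 54 bases, and not in these letters in Il17f. Il17a also held an AP-1 site (6.75% of windows) at 244 bases, and Il17a and Il17f each a TATA box (12.4% of windows), at 31 and 29 bases. The Sox site AACAAT (9.42% of windows) was in none of the 3. Windows of 6 of the 8 measured genes were matched. Of the others, 1 of 2 Ccr6 windows held 1 ROR core and 2 Maf cores, and the windows of Il18r1 and Sox13 held none of the 5 motifs. Such matches describe letters and do not show binding.

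The sort labels for CD24 and CD4 were borne out by the genes they name, and that for CD8 in part. Cd24a, which encodes CD24, read 2107 to 2764 on the 6 CD24hi arrays and 121 to 140 on the 2 CD24lo arrays. Cd4 read 105 to 238 on the 8 gamma delta arrays and 3619 to 4772 on the e17 DP arrays. Cd8a read 283 to 527 (Vg2 CD24hi), 329 to 814 (Vg4 CD24hi) and 684 and 907 (Vg4 CD24lo), against 5524 to 6125 on the e17 DP arrays. On the control CD4+ lymph node arrays Cd8a read 109 and 103. Of the marker list for gamma delta T cells 3 of 11 genes (Cd3e, Cd3g and Cd3d) were measured, and they also mark DP cells. Trgv1, a gamma chain variable segment by its symbol, read 3642 to 4996 on gamma delta arrays and 34.2 to 116 on DP arrays. Its means of 4261 (Vg2 CD24hi), 4596 (Vg4 CD24hi) and 3708 (Vg4 CD24lo) were alike, so the Vg2 and Vg4 labels were not checked by a gene. DP markers remained measurable in the gamma delta groups, the 7 measured genes summing to 972 to 2985 (Vg4 CD24hi), 1230 to 1523 (Vg4 CD24lo) and 1140 to 2134 (Vg2 CD24hi), against 23042 to 25281 in e17 DP cells. Array medians over the series lay between 112 and 147 intensity units. No detection calls were used, so the lowest levels of a gene cannot be told from its probe set's background, and a fold against them is understated. In bulk samples, fewer cells expressing a gene and less RNA per cell cannot be told apart.

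The 8 genes fell into 3 patterns among thymocytes, seen in the plot of members by array. Sox13, Blk and Maf were high in all 3 gamma delta groups and low in DP cells. Il23r, Il17f, Il17a and Il18r1 were higher in Vg4 CD24hi than in Vg2 CD24hi cells and higher again in Vg4 CD24lo cells. Ccr6 was higher in Vg4 CD24lo cells than in every other thymocyte group.

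**Figure D1:**
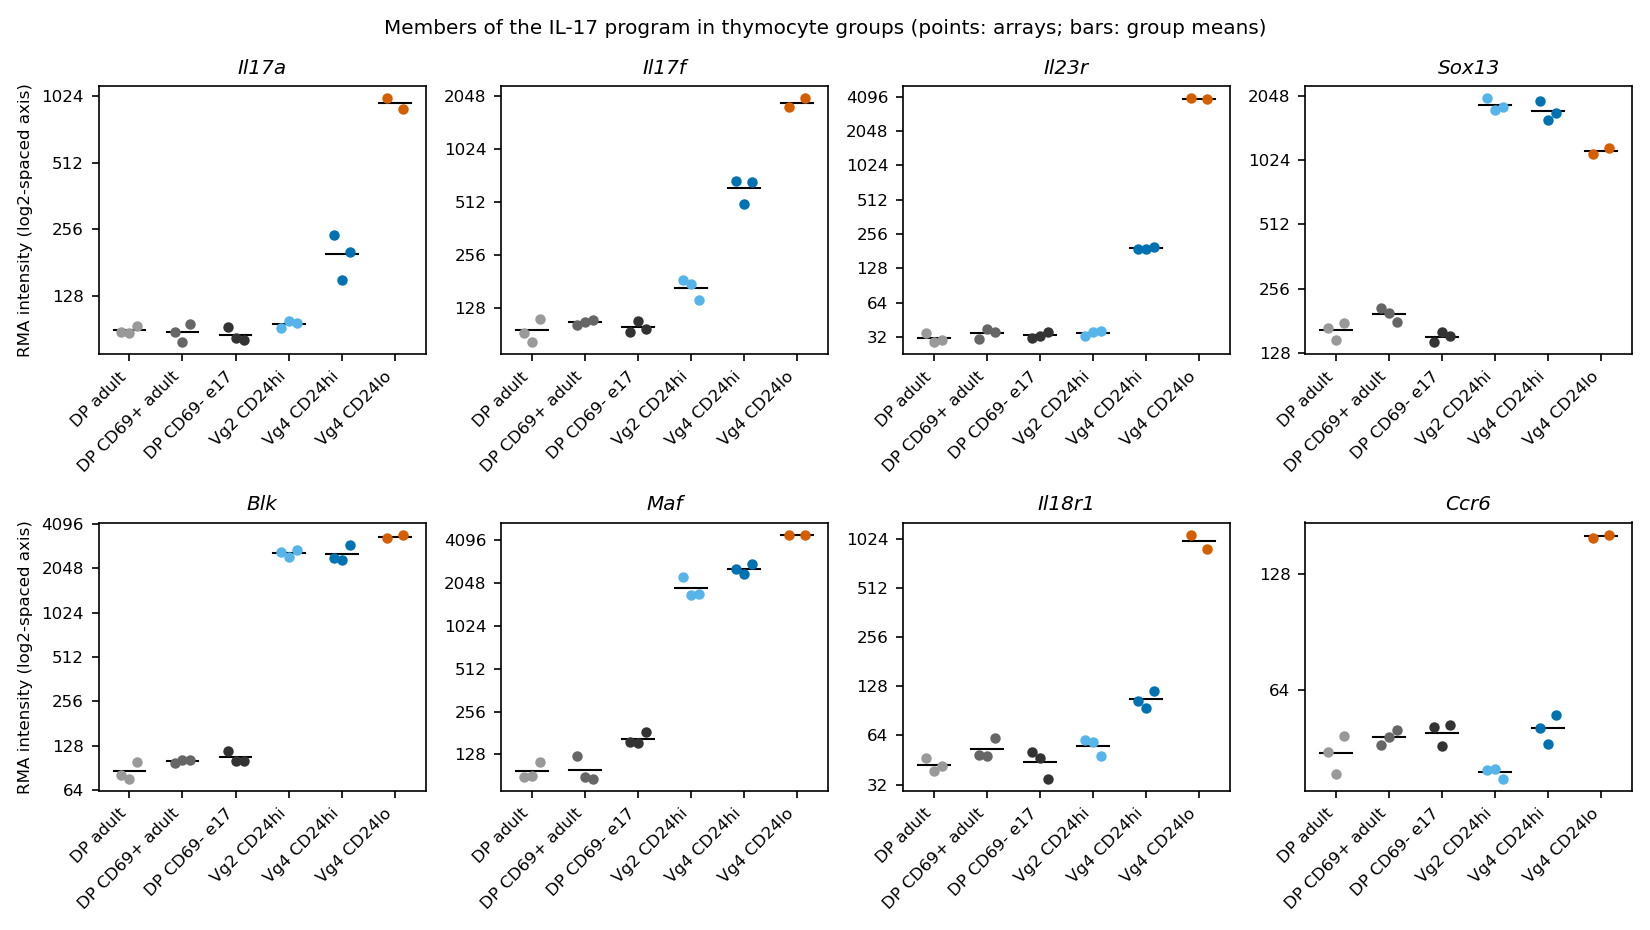
RMA intensity (log2-spaced axis) of the 8 measured members on every array of 6 thymocyte groups, with group means as bars. Sox13, Blk and Maf are high in all 3 gamma delta groups, whereas Il23r steps from 34.8 (Vg2 CD24hi) to 193 (Vg4 CD24hi) and 3938 (Vg4 CD24lo).

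Sox13, an HMG-box factor early in gamma delta development, read 144, 160 and 154 in e17 DP cells. It read 1995, 1752 and 1819 in Vg2 CD24hi cells, 1938, 1574 and 1700 in Vg4 CD24hi cells, and 1094 and 1169 in Vg4 CD24lo cells. The CD24lo arrays lay below every CD24hi array and far above every DP array. Blk, which in the textbook setting signals downstream of the B cell receptor, read 118, 101 and 101 in e17 DP cells and 2338 to 2936 over the 6 CD24hi gamma delta arrays. It read 3265 and 3460 in Vg4 CD24lo cells. B cell markers did not accompany it: Cd79a (26.0 to 54.8), Ms4a1 (21.8 to 28.6) and Pax5 (69.3 to 81.3) were as low on the 8 gamma delta arrays as in DP cells, against 3625, 4839 and 1866 on the single B1a array. Cd79b was the exception, at 568 to 1175. Maf, the c-Maf bZIP factor, read 156, 154 and 184 in e17 DP cells and 2242, 1697 and 1721 in Vg2 CD24hi cells. It read 2554, 2376 and 2779 in Vg4 CD24hi cells and 4473 and 4454 in Vg4 CD24lo cells, with no overlap between the 4 groups.

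Il23r, the subunit that gives the IL-23 receptor its specificity, was near the lowest values of its own range in e17 DP (31.3, 32.5, 35.4) and Vg2 CD24hi cells (32.5, 35.7, 36.1). It read 191, 190 and 197 in Vg4 CD24hi cells and 3986 and 3890 in Vg4 CD24lo cells. Il18r1, the ligand-binding chain of the IL-18 receptor, read 51.0, 46.8 and 34.8 in e17 DP cells and 59.6, 58.1 and 47.9 in Vg2 CD24hi cells. It rose to 104, 94.5 and 120 in Vg4 CD24hi cells and to 1083 and 890 in Vg4 CD24lo cells. For both receptors the 3 gamma delta groups were fully separated, and the gap to the CD24lo arrays was the wider.

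Il17a read 92.5, 82.2 and 80.8 in e17 DP cells, 91.9, 98.2 and 96.8 in Vg2 CD24hi cells, 242, 151 and 203 in Vg4 CD24hi cells, and 1002 and 895 in Vg4 CD24lo cells. Il17f read 94.6, 109 and 97.8 in e17 DP cells and 185, 175 and 142 in Vg2 CD24hi cells. It read 676, 501 and 670 in Vg4 CD24hi cells and 1764 and 1990 in Vg4 CD24lo cells. In Vg4 CD24hi cells the second array was the lowest for both cytokines. Ccr6, the receptor for CCL20, read 51.5, 45.8 and 52.0 in e17 DP cells, 39.9, 40.1 and 37.8 in Vg2 CD24hi cells, 51.1, 46.6 and 55.4 in Vg4 CD24hi cells, and 159 and 162 in Vg4 CD24lo cells. Its CD24lo arrays stood above all others, the Vg4 CD24hi arrays overlapped the DP arrays and the Vg2 arrays lay below them.

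Between the CD24lo and CD24hi stages of Vg4 cells, all 8 genes tested changed, 7 upward and 1 downward. The filter on low values, a group mean of at least 116 intensity units in the thymocyte fit, has a part in such counts: Il18r1 and Ccr6 passed it through the Vg4 CD24lo group alone, Il17a and Il23r through the 2 Vg4 groups, Il17f and Blk through the 3 gamma delta groups, and Maf and Sox13 through DP cells as well. With no filter the same number of genes, 8, was called. Among all 13825 probe sets tested in the thymocyte fit, 18.8% were called in this comparison, at a Benjamini-Hochberg adjusted p under 0.05 in limma, and their median log2 change was -0.02, against 1.64 for the 8 genes; 6.94% were called higher and 11.8% lower. Il23r had the highest rise of all probe sets tested, 20.4-fold (log2 change 4.35 ± 0.11 SE, adjusted p = 5.8e-16). Il18r1 ranked 4 among the rises at 9.28-fold (3.21 ± 0.16, adjusted p = 1.8e-11), and its partner chain Il18rap, the adjacent gene, rose by 1.84 ± 0.16. Il17a rose 4.86-fold (2.28 ± 0.14, adjusted p = 3.7e-10), Ccr6 3.15-fold (1.66 ± 0.11, adjusted p = 5.8e-10) and Il17f 3.07-fold (1.62 ± 0.14, adjusted p = 6.4e-08). The changes of Maf (0.80 ± 0.16, adjusted p = 8.5e-04) and Blk (0.40 ± 0.12, adjusted p = 0.025) were smaller. Sox13 fell by 0.61 ± 0.11 on the log2 scale (adjusted p = 3.9e-04). No gene's CD24lo arrays overlapped its CD24hi arrays. The Blk call was lost when either CD24lo array or CD24hi array 1 or 2 was left out (adjusted p 0.076 to 0.16) and in a fit of all 145 arrays (0.17). Without CD24lo array 1 or 2, 1386 or 1684 of all probe sets were called in place of 2594. Some cell type markers moved with the CD24lo group. Of the 7 DP markers 4 were lower, among them Rag1 (101 against 423) and Cd8b1 (209 against 696). Of the 3 Cd3 genes Cd3d was lower (880 against 1360), and so was the 1 dendritic cell marker tested, H2-Ab1 (60.7 against 106). The 1 B cell marker tested, Cd79b, was higher (1121 against 778), and the B cell list of 5 summed to 1232 to 1339 against 743 to 1174. Of 2 NK and ILC markers tested Cxcr5 was higher (596 against 334) and Kit lower (132 against 427), and that list of 5 summed to 843 to 925 against 772 to 981. Klrb1c (23.9 against 22.8), Ncr1 (37.1 against 27.9) and Tnfrsf11a (95.4 against 84.3) were low and not tested. The part of all these markers in the result was not tested.

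Between Vg4 CD24hi and Vg2 CD24hi cells, immature cells that differ by the excluded or stained gamma chain, 4 of the 8 genes were higher and none lower, where 0.774% of all probe sets were called, 0.564% higher. Il23r (2.47 ± 0.10, 5.54-fold, adjusted p = 3.0e-12) and Il17f (1.88 ± 0.13, 3.67-fold, adjusted p = 5.7e-08) ranked 1 and 2 among all rises. Il17a (1.03 ± 0.13, adjusted p = 1.6e-04) and Il18r1 (0.94 ± 0.14, adjusted p = 0.0015) were higher as well. Maf (0.45 ± 0.14, adjusted p = 0.21) and Ccr6 (0.38 ± 0.09, adjusted p = 0.083) did not pass, although their arrays did not overlap. Sox13 (95% interval of the log2 difference -0.30 to 0.11) and Blk (-0.26 to 0.19) overlapped between the groups. Without Vg2 array 2 or 3 the count over all probe sets was 54 or 51 in place of 107, and 4 of the 8 genes were called each time. Of the 2 NK and ILC markers tested Cxcr5 was higher in Vg4 CD24hi cells (334 against 116) and Kit was not called (427 against 434). The list of 5 summed to 772 to 981 against 660 to 718. Klrb1c (22.8 against 24.5), Ncr1 (27.9 against 26.3) and Tnfrsf11a (84.3 against 90.9) were low and not tested. The part of Cxcr5 in the result was not tested.

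Against e17 DP cells the 3 genes of the first pattern separated both CD24hi groups. In Vg4 CD24hi cells 7 of 8 genes were higher, where 50.0% of all probe sets were called, 27.8% higher. Blk was 23.9-fold higher (4.58 ± 0.11, adjusted p = 5.5e-17), Maf 15.6-fold (3.97 ± 0.14, adjusted p = 2.0e-14) and Sox13 11.3-fold (3.50 ± 0.10, adjusted p = 6.4e-16). Il17f (2.61 ± 0.13), Il23r (2.54 ± 0.10), Il18r1 (1.28 ± 0.14) and Il17a (1.20 ± 0.13) were also higher, and Ccr6 was not called (95% interval -0.16 to 0.23). In Vg2 CD24hi cells 5 of 8 genes were called, 4 of them higher, where 49.0% of all probe sets were called, 27.0% higher. Blk (4.61 ± 0.11), Sox13 (3.60 ± 0.10) and Maf (3.51 ± 0.14) were higher, and Il17f by 0.73 ± 0.13 (adjusted p = 1.0e-04). Ccr6 was called lower (-0.34 ± 0.09, adjusted p = 0.0057), but its means of 39.2 and 49.8 both lay under the filter and under its median of 55.9 outside the gamma delta groups. That call was not held in the fit of all arrays (adjusted p = 0.091). Il17a (95% interval -0.09 to 0.43) and Il23r (-0.13 to 0.27) were not called in Vg2 cells. Il18r1 (0.33, adjusted p = 0.062) was not called either, but it passed without e17 DP array 1, without Vg2 array 3 (adjusted p 0.025 and 0.033) and after quantile normalization (0.036). Both CD24hi groups were set against the same 3 DP arrays. Other markers moved in the same comparisons. The 7 DP markers were lower in both groups. Cd79b was higher, at 778 (Vg4) and 643 (Vg2) against 355, and the B cell list of 5 summed to 743 to 1174 and 736 to 878 against 496 to 558. That sum is again mostly Cd79b. The rest of the list was low and not tested: Cd79a (43.0 and 32.8 against 33.8), Ms4a1 (27.5 and 25.4 against 24.5), Pax5 (71.1 and 77.2 against 77.9) and Ebf1 (34.9 and 35.4 against 28.9). The 2 NK and ILC markers tested were higher in both, Cxcr5 at 334 and 116 against 51.8 and Kit at 427 and 434 against 160. That list of 5 summed to 772 to 981 and 660 to 718 against 315 to 363, a difference that lies in Cxcr5 and Kit. The untested Klrb1c (22.8 and 24.5 against 20.5), Ncr1 (27.9 and 26.3 against 27.1) and Tnfrsf11a (84.3 and 90.9 against 85.0) hardly differed. H2-Ab1 (106 and 121 against 73.5) and the epithelial marker Epcam (230 and 253 against 141) were higher as well. Krt8, the other epithelial marker tested, was not called (117 and 156 against 131). Among untested markers Foxn1 read 65.5 and 68.9 against 69.2, and Krt5 52.0 and 76.2 against 47.6. The untested dendritic genes went both ways: H2-Aa (82.6 and 131 against 61.1), Itgax (51.7 and 47.5 against 55.8), Siglech (72.2 and 67.0 against 79.1) and Flt3 (75.2 and 62.2 against 70.5). Cd3d was higher in both groups and Cd3e lower in Vg2 cells. The part of these markers in the result was not tested.

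**Figure D2:**
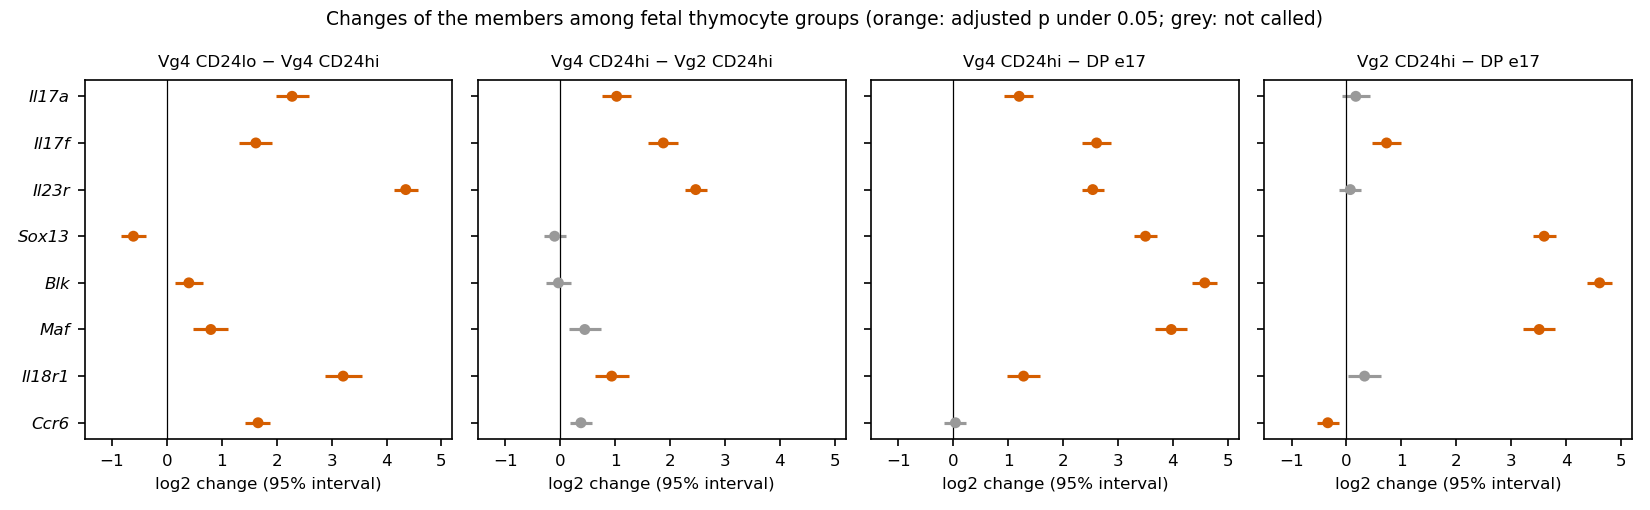
log2 changes of the 8 members with 95% intervals in 4 comparisons among fetal thymocyte groups, orange where the adjusted p was under 0.05 and grey where not. Sox13 is the single member below 0 in Vg4 CD24lo against CD24hi cells (-0.61), and Blk, Sox13 and Maf exceed 3 in both comparisons with DP cells.

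Within the alpha beta lineage the genes moved little. Maf was higher in e17 than in adult DP cells (165 against 97.5, log2 change 0.76 ± 0.14, adjusted p = 3.1e-04) and so was Blk (107 against 85.6, 0.32 ± 0.11, adjusted p = 0.025), where 35.9% of all probe sets were called. The Blk call was lost without e17 array 1 or without adult array 1 or 2 (adjusted p 0.084 to 0.12), with 32 added to each intensity (0.052) and in the fit of all arrays (0.15). Between CD69+ and CD69- adult DP cells none of the 8 was called, with 40.3% of all probe sets called by limma and 3 of the 8 at an unadjusted p under 0.05. Sox13 (0.24, adjusted p = 0.056) was nearest, and it passed without adult DP array 3 or CD69+ array 3 (adjusted p 0.036 and 0.042), with a stricter filter (0.041) and after quantile normalization (0.039). Without adult DP array 3 Blk passed too (0.015).

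Other genes tied to the IL-17 program changed around these 8 between the Vg4 stages. Of 23 transcription factors tested, 4 were higher and 10 lower in CD24lo cells. The lower ones included Sox4 (-2.30), an HMG-box factor like Sox13, Etv5 (-2.09), Hes1, a Notch target (-1.67), and Id3 (-1.57), while Id2, like Id3 an inhibitor of E proteins, was higher (1.42). Zbtb16, which encodes PLZF, was higher by 0.37. Of 22 surface and cytokine receptor genes tested, 7 were higher and 9 lower. Cxcr6 (1.90), Gpr183 (1.86), Cd44 (1.50) and Il17re (1.41) were higher, and Il2ra (-2.60), Cd27 (-1.85) and Ccr7 (-1.71) lower. Of 7 genes of the IL-17 family and its receptors 3 were higher, with Il17re and Il17rc (0.98) leading, and 2 lower, Il17rb (-1.42) and Il17ra (-0.40). In the IL-1, IL-18 and IL-23 pathway 5 of 15 were higher and 2 lower: Il12rb1, which pairs with Il23r, rose by 0.64 ± 0.12, whereas Il12rb2, the gene next to Il23r and the IL-12 counterpart, fell by 2.69 ± 0.15 (97.6 against 634). Of 9 tested genes of the interferon gamma program 1 was higher and 5 lower, Gzma among them (-2.80), while Il2rb read 1565 against 750. The list held 15 genes, and the filter left out Ifng itself (97.9 against 78.5) and Tbx21 (107 against 92.9). It also left out Eomes (49.2 against 55.2), Cxcr3 (110 against 95.4), Klrd1 (94.9 against 36.2) and Klrk1 (28.1 against 19.7). Of 6 other CCR receptor genes none was higher and 4 were lower, by 0.41 (Ccr9) to 2.30 (Ccr8). Of 3 other Sox genes 2 were lower. Of 4 other Maf family genes none was called, and of 3 other Src kinases Fgr was lower. The list medians were -0.26 for the transcription factors, -0.05 for the receptors, 0.05 for the IL-1, IL-18 and IL-23 pathway, -0.44 for the interferon gamma program and -0.89 for the CCR receptors, against -0.02 over all probe sets.

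Between the Vg4 and Vg2 CD24hi groups the same lists showed few calls. Of 22 receptor genes 6 were higher and none lower, among them Cxcr6 (1.06), Il17re (1.02), Cd163l1, a scavenger receptor of gamma delta cells (0.78), and Gpr183 (0.71). Of 7 genes of the IL-17 family and its receptors Il17re alone was called, and of 9 of the interferon gamma program Il2rb (0.48). Of 23 transcription factors Ikzf3 alone was called (0.64). None was called of 15 genes of the IL-1, IL-18 and IL-23 pathway, nor of the Src, Maf, Sox and CCR lists. List medians were 0.03 for the receptors, 0.03 for the transcription factors and 0.00 for the pathway, against 0.00 over all probe sets. Against e17 DP cells, where 27.8% (Vg4) and 27.0% (Vg2) of all probe sets were called higher, most lists were higher, the interferon gamma and CCR lists among them. Vg4 CD24hi cells were higher in 17 and lower in 3 of the 23 transcription factors (median log2 change 0.93), and higher in 16 and lower in 1 of the 22 receptors (1.16). They were higher in 9 and lower in 3 of the 15 pathway genes (0.59), higher in 4 of the 7 IL-17 family genes (0.33), higher in 6 and lower in 1 of the 9 interferon gamma genes (1.46) and higher in 5 of the 6 CCR genes (3.10). The median over all probe sets was -0.01. Vg2 CD24hi cells were higher in 17 and lower in 3 transcription factors (1.05), higher in 17 receptors (0.83), higher in 9 and lower in 3 pathway genes (0.45), and higher in 3 IL-17 family (0.10), 6 interferon gamma (1.24) and all 6 CCR genes (3.25), against 0.00 over all probe sets.

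Across the 65 groups both cytokine genes were highest in Vg4 CD24lo and next in Vg4 CD24hi cells. Il17a read 63.6 to 173 (median 92.3) on the 137 arrays outside the gamma delta groups, and 3 of those reached the lowest Vg4 CD24hi array. Il17f read 61.9 to 196 outside, and none reached it. Sox13 stood lower outside (138 to 537), with skin mast cells (males of 6 weeks) next at 462 ± 27.4 (SD, n = 3). Blk read 62.1 to 1988 outside, the highest being the B1a array (a male of 9 weeks), whose label carries CD4, CD8 and CD69 as markers although its Cd3e read 156 and Ms4a1 4839. The next array read 186, in medullary thymic epithelium. The other 4 genes were shared more widely.

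**Figure D3:**
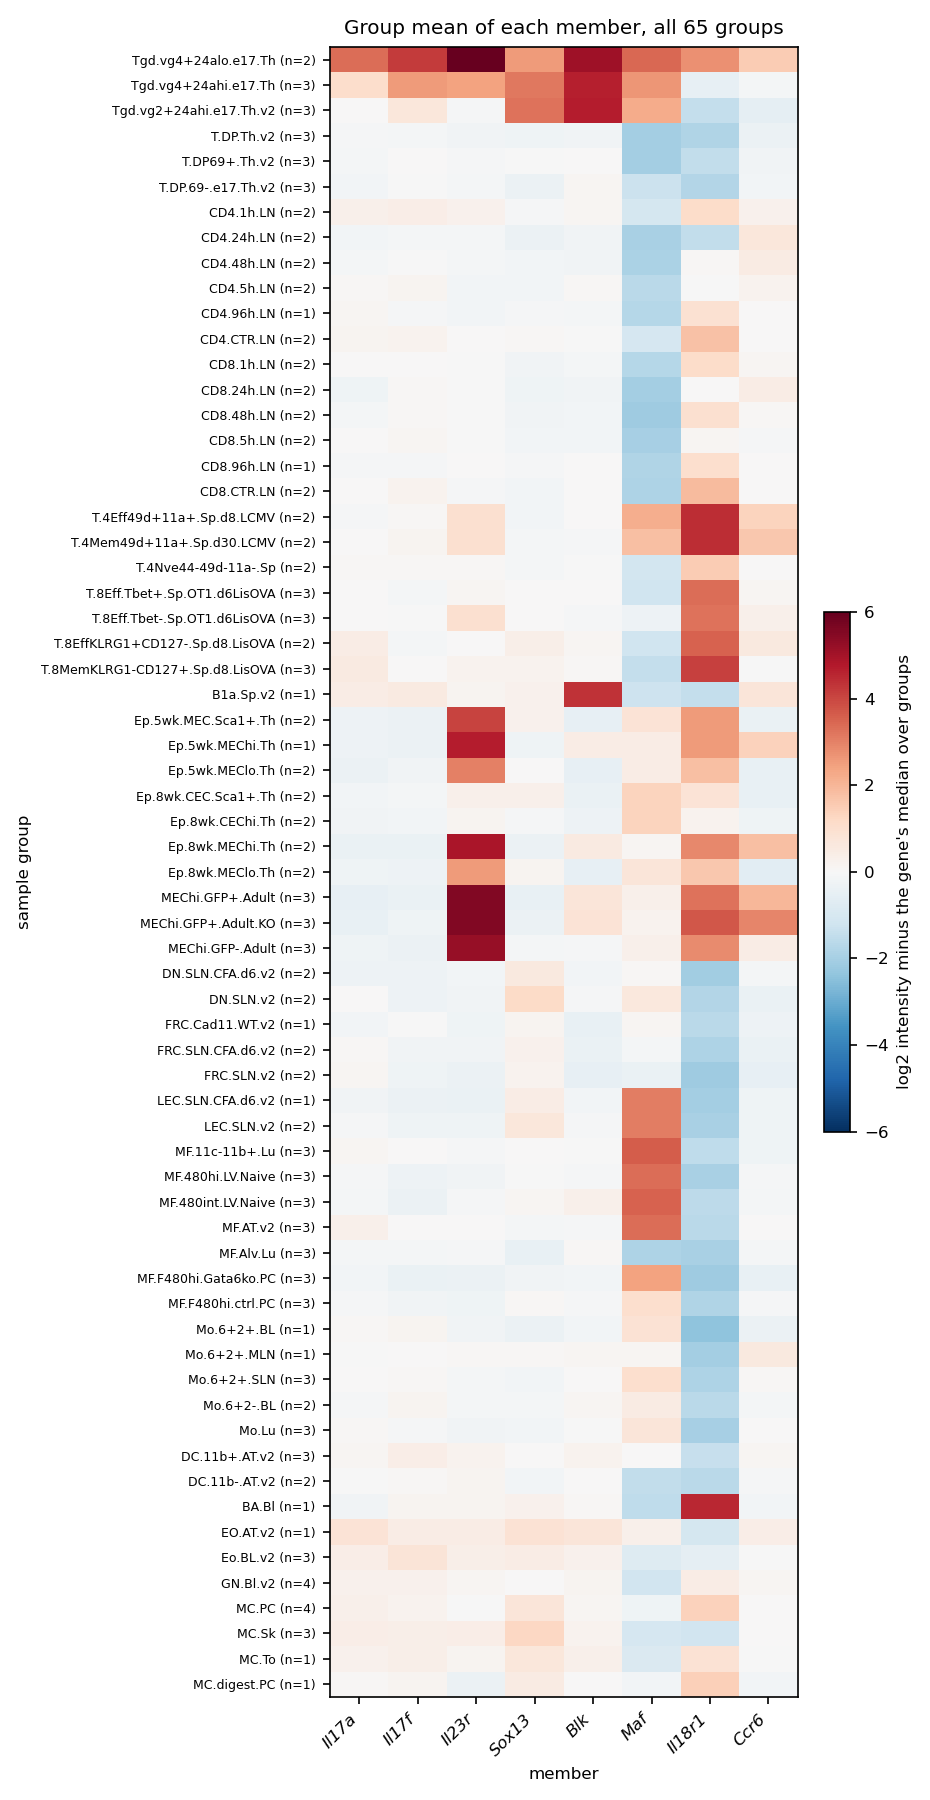
Group means of the 8 members in all 65 groups, as log2 intensity minus each gene's median over groups, with the thymocyte groups on top. Il17a and Il17f stand out in the Vg4 groups and Sox13 in every gamma delta group. Blk stands out also in B1a cells (1988), Il23r also in medullary thymic epithelium (up to a group mean of 1696), and Maf also in macrophages.

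Il23r, Il18r1 and Ccr6 were all read in medullary thymic epithelial cells (MEC), the stromal cells that display tissue antigens to thymocytes. The groups were picked after their values were seen and no test is given. The mice were C57BL/6 of 5 or 8 weeks; hi and lo stand in the titles, while the 5- and 8-week groups share 1 marker label (CD45-, EpCAM+, Ly51+, MHCII+, Sca1+), and the GFP groups are labelled CD45-, Ly51- and MHCIIhi. Il23r read 1136 to 2044 on the 9 arrays of MHCII-high MEC sorted by GFP, 1038 and 1118 in 8-week MEChi, 942 in 5-week MEChi (1 array), 568 and 639 in Sca1+ MEC, and 195 to 301 on 4 MEClo arrays. The 4 cortical epithelium arrays read 40.0 to 46.4. Il18r1 read 448 to 540 in MEClo, 866 and 876 in Sca1+ MEC, 1027 to 1073 in GFP-, 1362 to 1516 in GFP+ and 1898, 1988 and 1948 in GFP+ KO cells, whose deleted gene the labels do not name. Those 5 sets of arrays did not overlap, but 8-week MEChi (996 and 1191) spanned the GFP- arrays, and 5-week MEChi read 889. Ccr6 had its highest group there: 406, 446 and 438 in GFP+ KO, 215, 234 and 221 in GFP+ and 81.7, 84.5 and 66.8 in GFP- cells, with no overlap. The MEChi arrays not sorted by GFP read 149 (5-week) and 175 and 224 (8-week), the last within the GFP+ range, and MEClo arrays read 34.5 to 41.6. Il17a (63.6 to 82.4), Il17f (72.1 to 89.2) and Sox13 (138 to 211) were low on the 9 GFP-sorted arrays. Maf read 401 to 556 on them, above its median of 357 outside the gamma delta groups and above e17 DP cells, and Blk read 75.9 to 186. Trgv1 read at most 63.4 there and Epcam, an epithelial marker, at least 1430. Il18rap, which rose with Il18r1 in Vg4 CD24lo cells, read 39.2 to 57.3 on those arrays. The 3 Cd3 genes summed to 363 to 759 on them, against 13854 to 14994 on gamma delta arrays. Markers of other cells moved with the levels: the 7 myeloid genes summed to 4373 to 6586 on the GFP-sorted arrays against 846 to 1046 in 5-week MEClo, and the 5 measured NK and ILC genes to 1948 to 3492 against 1635 to 2013. Their part in the levels was not tested.

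**Figure D4:**
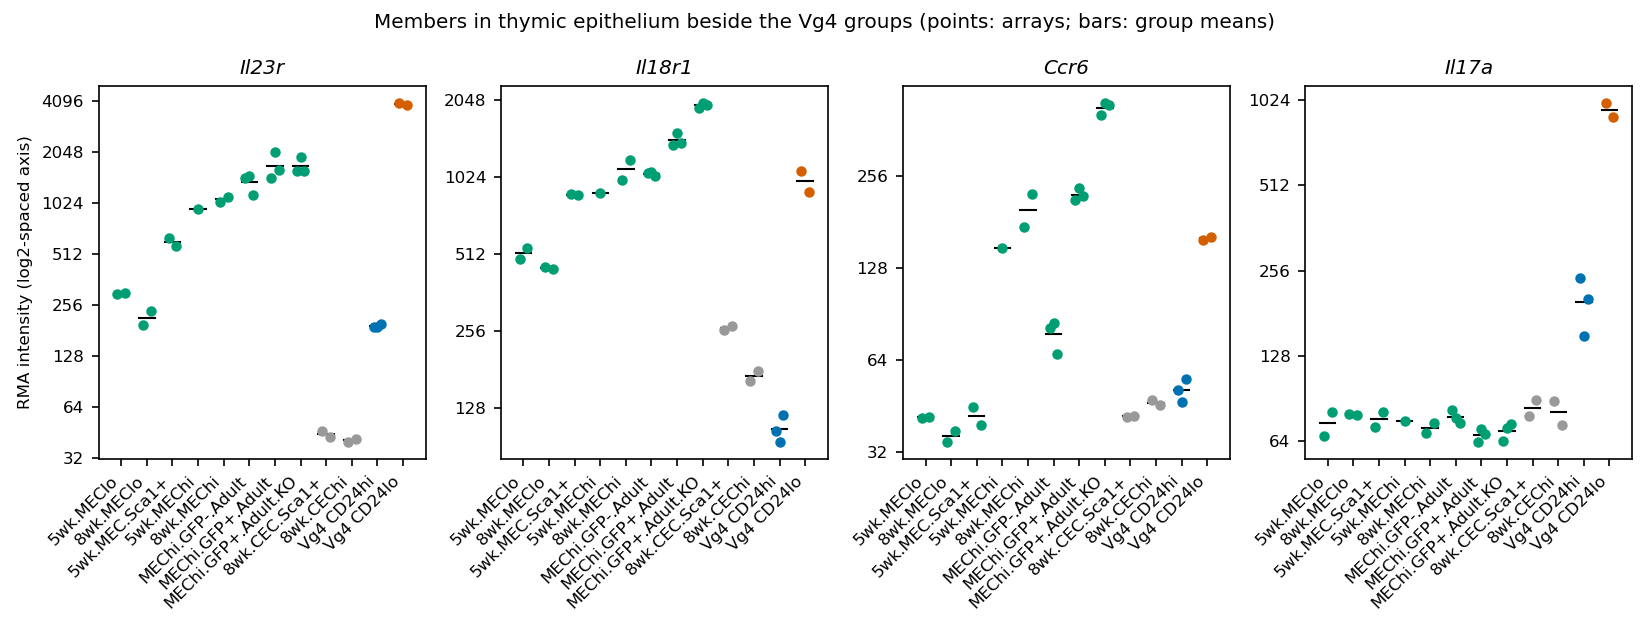
RMA intensity (log2-spaced axis) of Il23r, Il18r1, Ccr6 and Il17a on every array of the thymic epithelial groups and the Vg4 groups, with bars at group means. Il23r, Il18r1 and Ccr6 reach high values in MEChi groups, while Il17a stays between 63.6 and 89.1 in all epithelial arrays.

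In CD4+ T cells of infected mice Maf, Il18r1 and Ccr6 rose. Effector (day 8) and memory (day 30) cells after lymphocytic choriomeningitis virus (LCMV) infection, gated as CD44+ CD11a+ CD49d+, were compared with CD44- naive cells (2 arrays each, spleen, male C57BL/6J of 6 weeks). Of the 8 genes 4 passed the filter on low values. Maf read 200 and 178 in naive, 1881 and 1800 in effector and 1527 and 1305 in memory cells. Its log2 change was 3.29 ± 0.13 for effector (adjusted p = 5.3e-07) and 2.90 ± 0.13 for memory cells (adjusted p = 2.4e-06). Il18r1 read 374 and 479 in naive, 3240 and 3189 in effector and 3082 and 3240 in memory cells, higher by 2.92 ± 0.14 and 2.90 ± 0.14. Ccr6 read 56.2 and 59.4, 149 and 139, and 210 and 134, higher by 1.32 ± 0.19 (adjusted p = 9.9e-04) and 1.54 ± 0.19 (adjusted p = 8.2e-04). Sox13 was called in neither comparison. Of 4 genes 3 were higher in each, where 32.2% (18.7% higher) and 14.5% (8.03% higher) of all probe sets were called; both comparisons share the naive arrays. Ccr6 passed the filter (122 intensity units) through the effector and memory groups alone, where it is high, so that its call is partly set by the filter. Il17a (86.6 to 105) and Il17f (99.9 to 120) were not tested and overlapped between the groups. Il23r was not tested either, but it did not overlap: it read 33.6 and 42.5 in naive, 78.6 and 60.6 in effector and 67.7 and 74.8 in memory cells. With no filter it was called higher in both (0.87 ± 0.17, adjusted p = 0.0041, and 0.91 ± 0.17, adjusted p = 0.0059).

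CD8+ spleen T cells of male B6 mice of 45 days were compared after infection with LisOVA, Listeria that carry ovalbumin. The T-bet+ and T-bet- effector groups (day 6, 3 arrays each, OT1 by title) are labelled as CD45.2+ and CD45.1+ cells, and Tbx21, which encodes T-bet, read 2889 to 3326 and 283 to 308. In T-bet- against T-bet+ cells Maf was the 1 of 4 genes called, where 5.01% of all probe sets were. Maf read 323, 372 and 296 without T-bet and 151, 172 and 208 with it (log2 change 0.91 ± 0.17, adjusted p = 0.006). Il18r1 overlapped (1235 to 1650 against 1330 to 1815). Il23r did not pass the filter on low values. It read 59.8, 85.1 and 64.7 against 41.3, 32.5 and 44.6, without overlap, and with no filter it was not called by limma (0.82 ± 0.20, adjusted p = 0.056). In KLRG1- CD127+ against KLRG1+ CD127- cells (day 8, 3 and 2 arrays) limma called none of 4, with 1.95% of all probe sets called and 1 of the 4 at an unadjusted p under 0.05. That gene was Il18r1, at 2153, 2430 and 3006 against 1799 and 1618 (0.55 ± 0.19, adjusted p = 0.2).

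When naive lymph node T cells (CD62Lhi CD44lo CD25-, male C57BL/6 of 6 weeks, 2 arrays at each time) were cultured with anti-CD3 and anti-CD28 beads, Il18r1 fell. In CD4+ cells it read 496 and 498 in the control, 332 and 313 at 1 h, 150 and 144 at 5 h, 59.9 and 48.9 at 24 h, 177 and 140 at 48 h and 279 (1 array) at 96 h. The log2 changes were -0.62, -1.76, -3.20 and -1.66 at 1, 5, 24 and 48 h (SE 0.17; adjusted p 0.017, 1.2e-06, 7.2e-10 and 1.6e-06). In CD8+ cells it read 493 and 603 in the control, 303 and 329 at 1 h, 164 and 163 at 5 h, 122 and 176 at 24 h, 309 and 268 at 48 h and 297 (1 array) at 96 h. Those changes were -0.79, -1.74, -1.90 and -0.92 (adjusted p 0.0055, 1.6e-06, 2.7e-07 and 8.1e-04). The 24 h fall was smaller in CD8+ cells by 1.30 ± 0.24 on the log2 scale (adjusted p = 0.016), a test in which 0.659% of all probe sets were called. That call was lost without array 2 of CD4 24 h, CD4 control or CD8 24 h, or array 1 of CD8 control (adjusted p 0.056 to 0.11) and with 32 added to each intensity (0.053). The 1 h calls were lost as well: in CD4+ cells without 1 h array 2 or either control array (adjusted p 0.061 to 0.11) and in the fit of all arrays (0.069), and in CD8+ cells without 1 h array 1 or control array 2 (0.057 and 0.082).

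Maf fell in CD4+ cells from 196 and 202 in the control to 123 and 137 at 5 h, 101 and 106 at 24 h and 104 and 111 at 48 h. The changes were -0.62, -0.95 and -0.89 (SE 0.15, adjusted p 0.0042, 6.1e-05 and 2.3e-04), the 5 h call being lost in the fit of all arrays (0.051). In CD8+ cells it started lower (123 and 101), and no change was called. The difference between the 24 h changes was 0.75 ± 0.21 (adjusted p = 0.17). In CD4+ cells at 24 h Il17f (-0.35, adjusted p = 0.036) and Sox13 (-0.44, adjusted p = 0.04) were lower too, at means of 94.3 and 154 against 121 and 209. The Il17f call was lost without 24 h array 2 or control array 1 (adjusted p 0.18 and 0.19), with no filter (0.05), after quantile normalization (0.1) and in the fit of all arrays (0.12). The Sox13 call was lost without any 1 of the 4 arrays (0.064 to 0.16) and with no filter (0.055). Il17f passed the filter through the CD4+ 1 h group alone, and Ccr6, which did not pass, was called higher at 24 h with no filter (0.63 ± 0.16, adjusted p = 0.0054). The shares of all probe sets called at 1, 5, 24 and 48 h were 20.1%, 31.2%, 53.4% and 34.5% for CD4+ cells. For CD8+ cells they were 14.5%, 28.9%, 43.3% and 25.0%. Beside these, 1, 2, 4 and 2 of the 4 genes tested were called in CD4+ and 1 at each time in CD8+ cells. The comparisons within a cell type share the 2 control arrays, whose culture time the labels do not give.

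**Figure D5:**
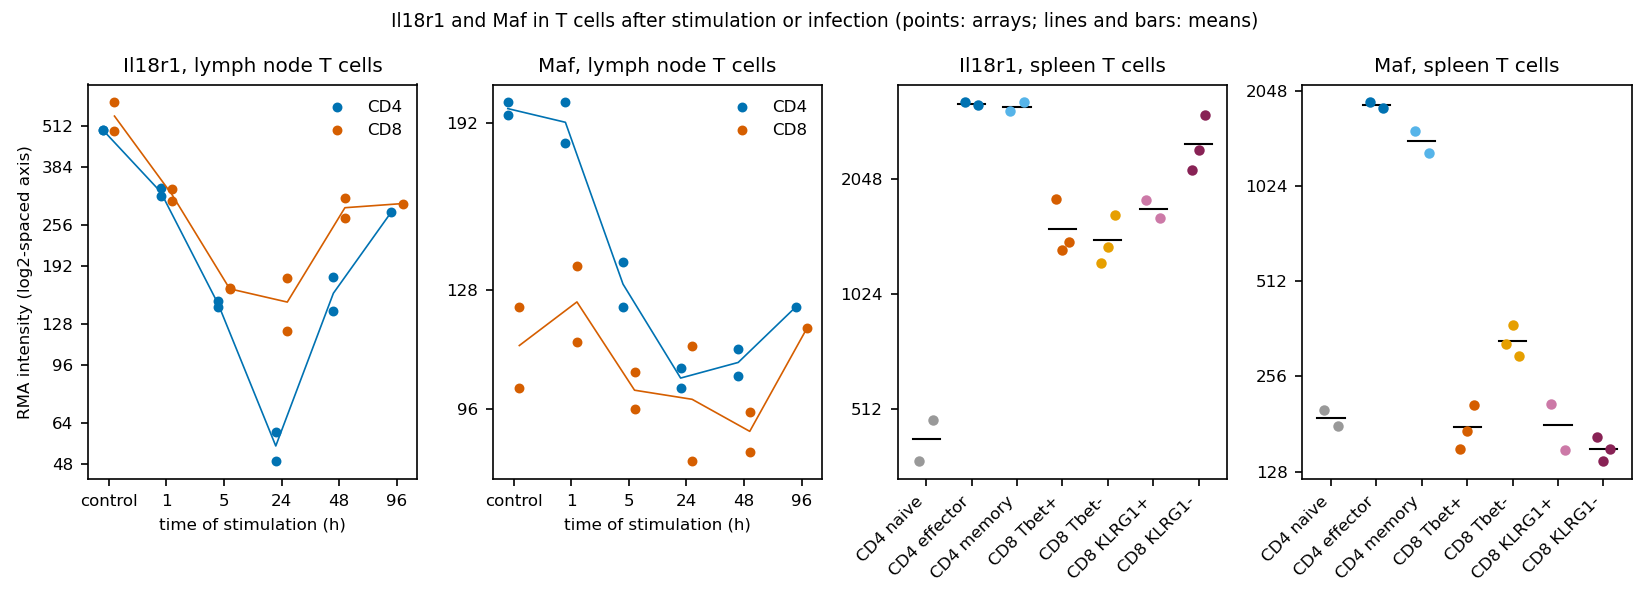
RMA intensity (log2-spaced axis) of Il18r1 and Maf: left, CD4+ and CD8+ lymph node T cells by time of stimulation (lines join means); right, spleen T cells after infection, with bars at group means. Il18r1 falls to 54.4 in CD4+ cells at 24 h, and both genes are higher in LCMV effector and memory than in naive CD4+ cells.

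Maf had its highest group means in CD11b+ lung macrophages (4997 ± 458, SD, n = 3) and F4/80int liver macrophages (4643 ± 351, n = 3), with Vg4 CD24lo cells in place 3 of the 65 groups (4464) and fat macrophages next (4169 ± 614, n = 3). The mice were male C57BL/6 of 6 weeks (lung, liver) and male C57BL/6J of 45 to 52 days (fat). The lung arrays lay above the Vg4 CD24lo arrays, and the liver and fat arrays spanned them. Alveolar macrophages read 114, 138 and 85.7 against 4493, 5389 and 5108 in CD11b+ lung macrophages (log2 change -5.49 ± 0.16, adjusted p = 5.7e-12), and Sox13 was lower by 0.44 there (adjusted p = 0.0023); 55.3% of all probe sets were called. Here 2 of the 8 genes passed the filter, as in lymph node stroma. Lymphatic endothelial cells (3335 and 3457; both stromal groups from male C57BL/6J of 6 weeks) exceeded fibroblastic reticular cells (289 and 328) in Maf, a log2 change of -3.46 ± 0.20 for the reticular cells (adjusted p = 2.0e-07), where 36.3% were called. Sox13 was not called there (-0.43, adjusted p = 0.13), though the arrays did not overlap; it passed in the fit of all arrays (0.018). Il18r1 was highest on the single blood basophil array (3434, a male of 6 weeks), where Il18rap read 2918.

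The genes whose group means followed each member most closely were found by Pearson correlation of log2 group means over the 65 groups, among 12154 genes. This is a description: the groups differ in cell type and source, and a few high groups set r. For Il17a they were Il17f (r = 0.906), Clnk, an adaptor protein gene (0.823), and Ptgdr2, a prostaglandin D2 receptor (0.801). For Il17f they were Il17a, Cd163l1 (0.895) and Zp1 (0.857). Clnk read 1641 in Vg4 CD24lo, 124 in Vg4 CD24hi and 59.0 in Vg2 CD24hi cells. Cd163l1 also led for Sox13 (0.849, before Olfr524 and 5830411N06Rik) and for Blk (0.841, before 1700048O20Rik and Trgv1), at 2895, 1939 and 1110 in those 3 groups and 99.8 in e17 DP cells. Il23r was closest to Skint2 (0.842), Skint4 (0.836) and Arnt2 (0.832) and Ccr6 to Slc4a8 (0.801), Upk1a and Amdhd1. Skint2, Skint4 and Slc4a8 were highest in the GFP+ KO epithelium and Arnt2 in the GFP- epithelium. Skint2 and Skint4 read 11.6 and 18.9 in Vg4 CD24lo cells. Il18r1 was closest to Acsbg1 (0.782), Rnf43 and Pkp3, and Maf to Itsn1 (0.707), Cemip2 and Trpv4. Between members r reached 0.77 for Il17f and Blk and 0.75 for Sox13 and Blk, but was 0.19 for Il17a and Il23r and -0.15 for Sox13 and Ccr6.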

How the data were processed

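The deposited values are one matrix of linear probe set intensity values for 145 arrays, which the authors made with RMA and Affymetrix Power Tools per the submitters' processing notes (versions: not given in the sources used here). RMA pulls low values toward a floor and equalises arrays, which shrinks folds of dim probe sets.

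Here log2 of the intensity was fitted in R 4.3.3 with limma 3.58.1 (a mean per group, eBayes, two-sided), in 6 separate fits of related groups. Probe sets entered when at least 1 group mean lay at or above the overall median of that fit (quantile 0.5); p-values were adjusted by Benjamini-Hochberg within each comparison and called under 0.05. Fold is 2 to the power of the log2 change. Probe sets with 1 symbol (21425) were named; 1399 had several and 2098 none. The fit was tested on simulated data.

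Named were all members, the 3 most alike genes each (those reaching the 75th percentile) and up to 4 called genes per list and direction. The members and lists were chosen with earlier results of these data known. Among comparisons with 3 shared numbers, same-numbered arrays deviated together most evenly in Vg2 CD24hi against e17 DP (r 0.12 to 0.15). Vg4 CD24hi against Vg2 CD24hi gave r 0.02 to 0.22. With 2 shared numbers, r in the stimulated T cells lay between -0.02 (CD4+ 24 h) and 0.60 (CD8+ 24 h). Alternatives were the filter, quantile normalization, an added 32, 1 fit of all arrays, the replicate block and leaving out each array. The number of arrays limits the precision; no batch label was used.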

Additional observations from a re-analysis of the deposited data

Results flagged for a closer look

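The change of Il18r1 at 24 h of stimulation was 1.30 higher on the log2 scale in CD8+ than in CD4+ cells, by a test of the difference itself (limma, adjusted p = 0.016). The call was lost when any 1 of 4 of the arrays was left out (adjusted p 0.056 to 0.11) and with 32 added to each intensity (0.053). The group means were 149 (CD8+ 24 h), 548 (CD8+ control), 54.4 (CD4+ 24 h) and 497 (CD4+ control).

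Ccr6 on array 5 of the 4 peritoneal mast cell arrays read 73.0, apart from the others at 52.3, 50.6 and 51.5. 16 such sets of 4 arrays were examined and chance sets about 1 in 20 apart, and the title's number is all that names this array; its source label reads blood, as does that of array 6.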

How the results depend on the processing

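Of 1228 recomputed values of the 8 genes, 1186 kept their side of the threshold, 33 lost a call and 9 gained one. No called change reversed direction, while a change of sign between uncalled values was counted as kept. Over the fetal thymocyte comparisons 411 values kept their side, 6 lost a call and 3 gained one, of 420. Genes that a filter removed in either fit are not among these values. Calls lost that way under the stricter filter appear only in the counts that follow. The settings were no filter, a stricter filter (75th percentile), quantile normalization, 32 added before log2, all arrays in 1 fit, the replicate block and leaving out each array. A fit of the 3 gamma delta groups alone, added after seeing the data, kept the 8 and 4 calls of these genes. Each gene has 1 probe set, so that another probe set gives no other value. Quantile normalization over all arrays moved 24 group levels by 0.854 to 1.16 times, 17 of them beyond 1 SD.

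The stricter filter tests fewer probe sets. It called 1685 (Vg4 CD24lo against CD24hi), 4534 (Vg4 CD24hi against DP), 4470 (Vg2 CD24hi against DP), 3456 (reticular against lymphatic cells) and 5015 (alveolar against CD11b+), in place of 2594, 6918, 6772, 5201 and 7647. It left 1 of the genes called in CD4+ cells at 5, 24 and 48 h (from 2, 4 and 2), 0 (from 1) for T-bet, 1 (from 2) in the lung and 1 (from 0) for DP CD69+, as did quantile normalization. Adding 32 left 1 (from 2) for e17 against adult DP and 0 (from 1) for the CD8 minus CD4 difference.

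With all arrays in 1 fit, counts over all probe sets were 1335 (from 2594) for the Vg4 stages, 46 (from 107) for Vg4 against Vg2, 2666 (from 4964) for e17 against adult DP, 3523 (from 5565) for DP CD69+, 1312 (from 689) for T-bet and 1073 (from 268) for KLRG1. The genes called were 1 (from 2) for e17 DP, 0 (from 1) for CD4+ 1 h, 1 (from 2) for CD4+ 5 h, 2 (from 1) for T-bet, 1 (from 0) for KLRG1 and 2 (from 1) for reticular cells. The cause was not tested.

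Leaving out each array gave 1386 to 2685 calls and 7 to 8 of the genes between the Vg4 stages, 51 to 112 and 4 between Vg4 and Vg2, 1 to 2 genes for e17 DP and 0 to 2 for DP CD69+. In CD4+ cells it gave 1397 to 2899 calls and 0 to 1 gene at 1 h, 2 to 3 genes at 24 h and 2934 to 4382 calls at 48 h. In CD8+ cells it gave 958 to 1375 calls and 0 to 1 gene at 1 h and 2268 to 2719 calls at 48 h. The CD8 minus CD4 difference had 47 to 115 calls and 0 to 1 gene. Counts were 2573 to 4735 (LCMV effector), 954 to 2479 (memory), 364 to 484 (T-bet) and 167 to 598 (KLRG1). Where this left 1 array, it was assumed to vary like the other groups.

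With the replicate block the counts were 2431 and 8 genes (Vg4 stages), 98 and 4 (Vg4 against Vg2), 6780 and 7 (Vg4 against DP) and 6655 and 5 (Vg2 against DP). The block changed no call of the 8 genes in any comparison where it was fitted. For LCMV it was not run, because the naive arrays share numbers with the other groups only in part. In every comparison of stimulated T cells the block raised the count over all probe sets, as from 2089 to 2486 in CD8+ cells at 1 h. Groups of 2 or 3 arrays, with a floor of low intensities, limit which small changes of Il17a, Il23r and Ccr6 could be seen.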
